A study of Mus musculus with 24 samples.

Results

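The antioxidant and glutathione enzyme genes were the 58 gene rows, of 18762 in the table, whose symbol began with Gst (alpha, mu, pi, theta, omega, kappa or zeta class), Prdx or Txn, was a numbered Gpx, Mgst or Sod, or was Cat, Gclc, Gclm, Gsr, Gss, Nqo1, Hmox1, Nfe2l2 or Keap1. Membership was set by symbol alone and used no measured value. They were measured by RNA-seq of ribosomal-depleted RNA in LSK-SLAM cells, a CD150+CD48- fraction of lineage-negative, Sca-1+ and c-Kit+ bone marrow that is enriched for hematopoietic stem cells (HSCs). The cells came from wild-type C57BL/6 mice, 5 young (4 to 5 months) and 7 old (20 to 22 months), with no treatment named in the labels and no sex given. These ages are those of the labels, and the paper gives older ages for both groups. A value is the normalized read count as deposited, and a mean is given with its SD over mice. The label of each mouse also ends in a letter, A (2 young and 4 old mice) or B (3 young and 3 old mice), whose meaning is not given in the sources used here.

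Libraries with the letter A held 0.861 to 3.11 M recovered reads and those with B 3.23 to 5.12 M. The letter and the depth therefore cannot be told apart. The row with the most reads in every library, Gm10800, took 7.18 to 18.6% of reads with A and up to 8.44% with B. It took 18.6% in old mouse 7, 13.8% in young mouse 2 and 12.3% in old mouse 5. Its part in the differences below was not tested. Old mice 5 and 7 had under 2 M reads and the lowest summed level of 8 HSC markers (1474 and 2142, against 2895 to 5249 in the other mice), although all 8 passed the minimum mean of 10 over the mice. Neutrophil markers summed to 4133 in old mouse 6 and to 226 to 1037 in the others. The progenitor markers Cd48, Cd34 and Flt3 summed to 167 to 293 in young and 98.0 to 139 in old mice, with Cd34 at 99.5 to 224 and 69.4 to 104. Cd48, the one that the sort selects against, overlapped between ages, at 5.10 to 9.99 and 0.583 to 11.8. In bulk RNA, fewer cells of a type and less RNA per cell cannot be told apart.

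Reactive oxygen is removed in steps. Superoxide dismutases turn superoxide into hydrogen peroxide, which catalase, glutathione peroxidases and peroxiredoxins reduce further. Glutathione and thioredoxin supply the electrons and are recycled by NADPH-dependent reductases, while glutathione S-transferases couple glutathione to electrophiles and peroxidized lipids. NRF2 (Nfe2l2), held down by KEAP1, is the transcription factor best known for inducing many of these genes through a short element in their promoters, and HSCs are known to be sensitive to oxidative stress.

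The core letters of that element, TGACNNNGC, were searched on both strands in RefSeq promoters (GRCm38.p6, 250 bases before to 50 after each start). Of the 58 genes, 48 had a promoter in the reference table, and 9 of these held the letters (18.8%), against 13.99% of all 27025 genes in it. The 9 were Nfe2l2 itself, Gclm, Prdx1, Txnrd1, Gstm5, Gstm7, Gsta3, Mgst1 and Txndc11. 6 of them are shown, namely Nfe2l2 itself, Gclm of glutathione synthesis, Prdx1 and Txnrd1, which differed between the letters described below, and the mu-class pair Gstm5 and Gstm7, whose age differences had opposite signs. Each is printed as the match in capitals with its flanks, 5′ to 3′ on the strand of the gene.
Nfe2l2: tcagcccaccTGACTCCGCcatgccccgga
Gclm: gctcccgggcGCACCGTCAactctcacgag
Prdx1: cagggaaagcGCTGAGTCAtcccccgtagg
Txnrd1: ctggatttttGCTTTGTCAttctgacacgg
Gstm5: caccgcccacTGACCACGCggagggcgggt
Gstm7: tctgaagaccTGACAAAGCgaagccaatcc
The promoters lie at chr2:75704614-75704913 (minus strand), chr3:122245307-122245606 (plus), chr4:116685349-116685648 (plus), chr10:82858956-82859255 (plus), chr3:107895604-107895903 (plus) and chr3:107931565-107931864 (minus), in that order. In Gclm, Prdx1 and Txnrd1 the letters read on the opposite strand, so they print as GCNNNGTCA. A match of letters is a description and not a site of binding.

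Of the 58 genes, 47 had a mean of at least 10 over the 12 mice and were tested. The 11 others had means of 1.64 to 6.71 and were 9 of the 21 glutathione S-transferases (Gsta1, Gsta2, Gsta3, Gstm3, Gstm6, Gsto2, Gstp2, Gstp3 and Gstt4), Mgst2 and Txndc8. The superoxide dismutases were represented by Sod3, the secreted enzyme. No row of the table carried the symbol Sod1 or Sod2, and none carried Txn2, Gpx8 or a zeta-class Gst symbol. The levels and counts here do not cover those genes.

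Levels between genes were compared as normalized read count per kb of exon. Txnip, the inhibitor that binds thioredoxin, stood highest at 500 ± 180 per kb (SD, n = 12), above Gpx1, the main cytosolic glutathione peroxidase, at 278 ± 83.4. A step below came Gstm1 at 96.2 ± 37.9, catalase (Cat) at 84.4 ± 24.6 and Txn1, cytosolic thioredoxin, at 79.4 ± 31.5. These 3 did not differ beyond their spread, and neither did Txn1 and Prdx3, the mitochondrial peroxiredoxin, at 62.4 ± 14.9. Prdx2 followed at 47.1 ± 9.16 per kb and Nfe2l2 at 38.8 ± 7.64. Sod3 stood lowest of the tested genes, at 2.69 per kb.

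**Figure D1:**
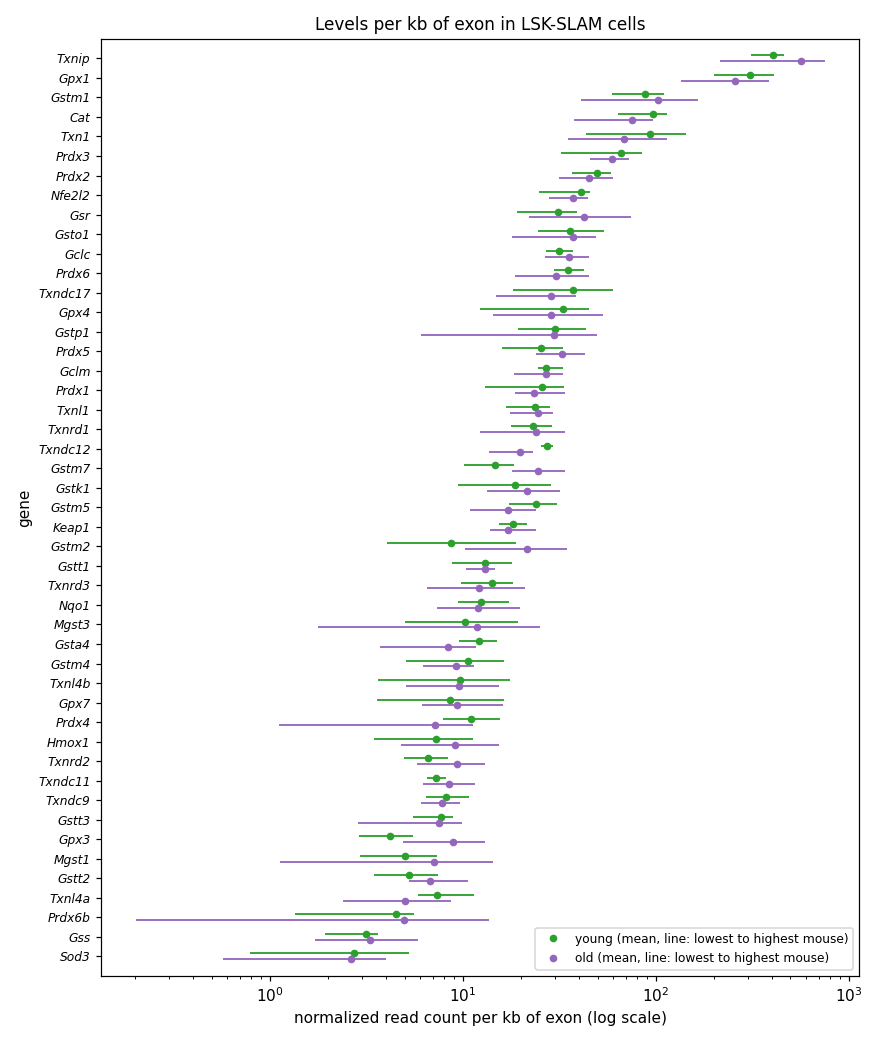
Normalized read count per kb of exon (log axis) for the 47 tested genes, ordered by the mean over all mice, with points for the mean of 5 young (green) and 7 old (purple) mice and lines from the lowest to the highest mouse. Txnip and Gpx1 stood above the rest, and the lines of young and old mice overlapped for every gene but Txndc12.

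The age comparison asked which of these genes differ between old and young LSK-SLAM cells. With limma on log2(value + 1), 0 of the 47 genes passed an adjusted p of 0.05, where 0.105% of all 12354 genes tested did. With the letter as a covariate the count was again 0, against 0.299%. At an unadjusted p under 0.05 there were 4 genes, 3 higher in old mice (Gstm2, Gstm7 and Gpx3) and 1 lower (Txndc12), against 3.95% of all genes (488), and edgeR and DESeq2 on the recovered reads each called 0 members. Values of young and old mice failed to overlap for 1 gene, Txndc12, against 0.461% of all genes. Log2 fold changes were above 0 for 22 genes and below 0 for 25, with a median of -0.01, beside -0.02 over all genes. The limma adjusted p was 0.372 for Gstm2, 0.825 for Gstm7, 0.937 for Txndc12 and the same 0.9997 for each of the other members.

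The precision behind these counts was limited. The median SE of a log2 fold change was 0.28 over the 47 genes and 0.29 over all genes. For 31 of the 47 the 95% interval lay inside a 2-fold change in either direction. For the other 16 the interval reached a 2-fold change in at least 1 direction.

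**Figure D2:**
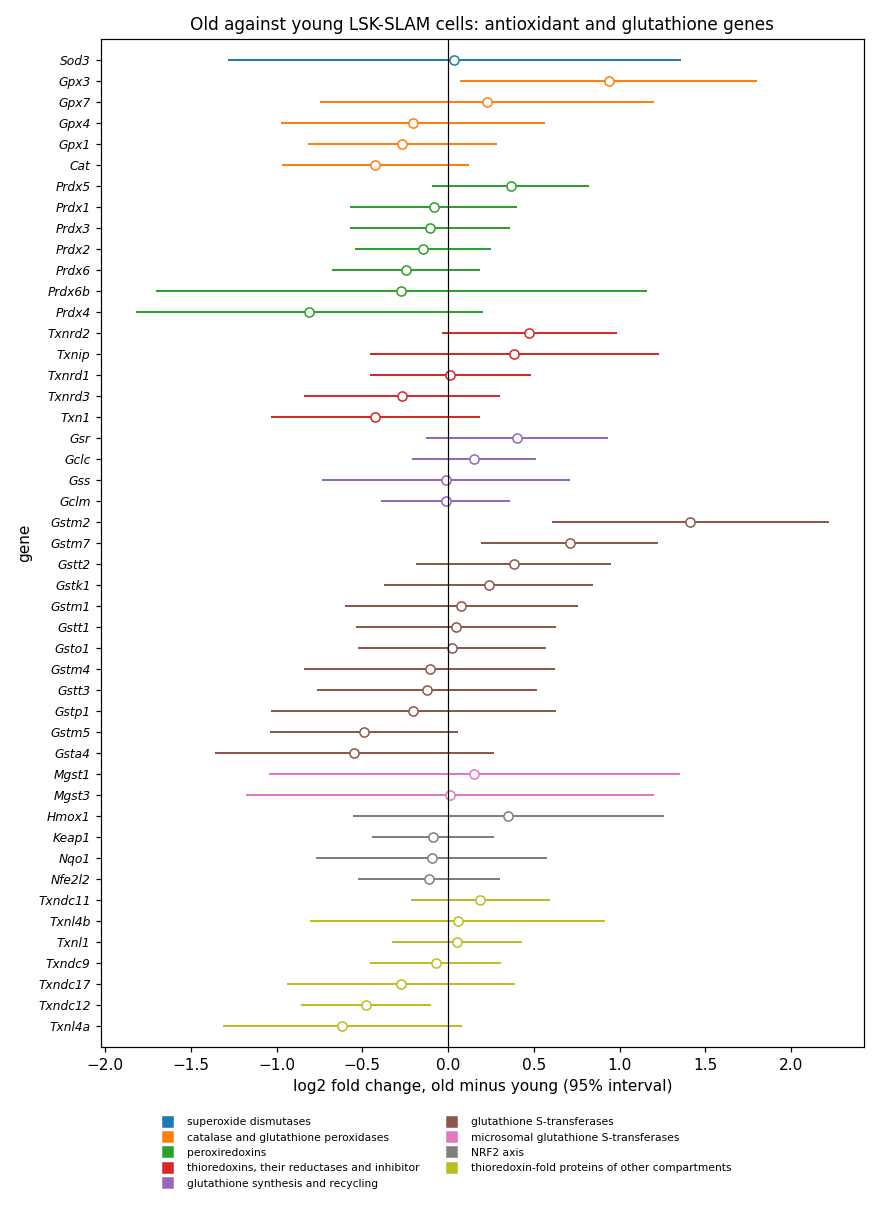
Log2 fold change of old against young mice on the log2(value + 1) scale, with its unadjusted 95% limma interval, for the 47 tested genes grouped and coloured by role. Open circles mark genes that did not pass an adjusted p of 0.05, which here are all 47, and Gstm2 (1.41) and Prdx4 (-0.81) were the ends of the range.

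The sensor pair changed little in measured level. Nfe2l2 was at 172, 94.7, 174, 174 and 160 in the 5 young mice, and its lowest, median and highest values in old mice were 106, 140 and 169. The log2 fold change was -0.11 (95% interval -0.53 to 0.30), and -0.28 without young mouse 2, the library at 94.7. Keap1, the adaptor that targets NRF2 for degradation, was at 85.4 ± 10.2 in young (SD, n = 5) and 80.9 ± 15.2 in old mice (n = 7), a log2 fold change of -0.09 (95% interval -0.44 to 0.27). Of the NRF2 targets in this group, Nqo1, a quinone reductase, was at 19.3 ± 4.60 in young and 18.7 ± 7.08 in old mice. Hmox1, which degrades heme, was at 12.8 ± 6.71 and 15.9 ± 6.74, with a log2 fold change of 0.35 (SE 0.43). In the mice with letter A that change was -0.013 (SE 0.51), and within letter B Hmox1 was under the minimum mean.

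None of the 4 genes of glutathione synthesis and recycling reached an unadjusted p of 0.05, and their intervals all lay inside a 2-fold change. Gclc and Gclm encode the catalytic and modifier subunits of the enzyme that sets the rate of synthesis. Gclc was at 119 ± 13.9 in young and 133 ± 25.6 in old mice, and Gclm at 170 ± 22.7 and 170 ± 32.9. Gss, which completes glutathione, was at 18.6 ± 4.16 and 19.5 ± 8.85. Gsr, the reductase that returns oxidized glutathione to its reduced form, had the largest difference of the 4. It was at 52.9, 84.6, 97.5, 108 and 85.8 in young mice and at 60.8, 107 and 206 as the lowest, median and highest of the old, a log2 fold change of 0.40 (SE 0.25). The highest value was that of old mouse 6, the library with the high neutrophil markers, without which the log2 fold change was 0.25. Without young mouse 1, the lowest of the young, it was 0.24.

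Of the peroxide-removing enzymes, Gpx3, the secreted glutathione peroxidase, had higher values in old mice at an unadjusted p only. It passed the minimum mean of 10 through the old mice alone, with a mean of 7.63 ± 1.95 in young and 16.1 ± 6.16 in old mice. Young mice had 5.29, 9.13, 7.46, 6.28 and 9.99, and old mice a lowest value of 8.94, a median of 13.5 and a highest of 23.7. All but 1 of the old mice lay above the highest young mouse. The log2 fold change was 0.94 (SE 0.41, limma p = 0.0356, adjusted p = 0.9997), and an exact permutation test over all divisions of the mice into 5 and 7, two-sided, gave p = 0.0101. Without the 2 libraries under 2 M reads the log2 fold change was 0.84 (limma p = 0.0881). As the old mice alone brought Gpx3 past the minimum mean, its p-values are given only as description. Gpx1 was at 443 ± 128 in young and 371 ± 114 in old mice, and Cat at 254 ± 51.1 and 197 ± 65.3. For Cat the lowest values, 98.4 and 111, were those of old mice 7 and 5, the libraries under 2 M reads, and its log2 fold change of -0.42 was -0.10 without them. Gpx4, which reduces lipid peroxides in membranes, was at 57.4 ± 25.8 and 49.4 ± 25.3, and Gpx7, an enzyme of the endoplasmic reticulum, at 11.1 ± 6.72 and 12.04 ± 4.51.

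The 7 peroxiredoxins gave 1 positive and 6 negative log2 fold changes, with a median of -0.15 and none at an unadjusted p under 0.05. Prdx4, the peroxiredoxin of the endoplasmic reticulum, was at 30.2, 17.3, 16.7, 19.6 and 32.9 in young mice. Its lowest, median and highest values in old mice were 2.37, 19.4 and 23.9, and the ages overlapped. The 2 lowest old values, 2.37 and 6.15, were again those of old mice 5 and 7, and the log2 fold change was -0.81 (95% interval -1.82 to 0.20). Without those 2 libraries it was -0.23. The abundant cytosolic and mitochondrial members were closer between ages. Prdx2 was at 152 ± 26.2 in young and 138 ± 29.7 in old mice, Prdx3 at 98.3 ± 30.1 and 87.9 ± 15.1, and Prdx1 at 78.0 ± 25.0 and 71.3 ± 15.9. Prdx5 was the positive one, at 54.4 ± 13.3 and 70.2 ± 16.8. Prdx6, which also acts on phospholipid peroxides, was at 169 ± 22.6 and 146 ± 41.3, and Prdx6b, a close relative of it, at 13.1 ± 5.15 and 14.4 ± 12.6.

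In the thioredoxin system the reading for its inhibitor depended on which libraries entered. Txnip was at 1445, 974, 1306, 1398 and 1197 in young mice, and its lowest, median and highest values in old mice were 676, 2045 and 2350. The lowest 2 old values, 676 and 1112, belonged to old mice 5 and 7, and the other 5 old mice, at 1673 to 2350, all lay above the highest young mouse. Over all mice the log2 fold change was 0.39 (SE 0.40, limma adjusted p = 0.9997), and the exact permutation test gave p = 0.253. Leaving out the 2 libraries under 2 M reads, an alternative chosen after seeing the data, left 5 old mice with the same letters as the young (2 A and 3 B). The log2 fold change was then 0.75 (SE 0.24, limma adjusted p = 0.336) without and 0.75 (SE 0.17, adjusted p = 0.0230) with the letter as a covariate. Within letter B it was 0.79 (limma adjusted p = 0.0222), and within letter A 0.12 (adjusted p = 0.9999). The difference between letters, 0.66, had an interaction p of 0.325 before adjustment. Txnip (chr3:96557957-96561883, plus strand) overlaps a gene on the opposite strand, Gm15441. Of the 50-base exon words of Txnip, 15.7% are shared on either strand with other genes, Gm15441 among them. How strand was counted is not given in the sources used here.

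Without those 2 libraries and with the letter as a covariate, 2 of 46 members passed the adjusted threshold, Gstm2 and Txnip, both higher in old mice, against 1.09% of all genes. Values of the ages did not overlap for 2 members, Txnip and Txndc12, against 1.79% of all genes. Within letter B alone the 2 of 42 members called were again Gstm2 and Txnip, against 0.974% of the genes tested there, with 3 mice against 3.

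None of the other members of the thioredoxin system reached an unadjusted p of 0.05 for age. Txn1 was at 98.8 ± 38.1 in young and 72.5 ± 26.5 in old mice. Txnrd1, the cytosolic thioredoxin reductase, was at 165 ± 31.0 and 171 ± 47.0. Txnrd2, the mitochondrial reductase, was at 32.0, 37.0, 31.4, 23.1 and 21.7 in young mice, with a lowest of 25.5, a median of 44.3 and a highest of 57.6 in old mice. 5 of the 7 old mice lay above the highest young mouse, and the log2 fold change was 0.47 (SE 0.24). Txnrd3, expressed mostly in testis, was at 40.3 ± 9.94 and 34.5 ± 13.5, and had the smallest interaction p of the 47 genes, 0.0685, with a log2 fold change of 0.22 within letter A and -0.74 within letter B. Across the 47 genes, 0 passed an interaction p of 0.05 even before adjustment, where 3.43% of all genes (424) did, and limma called 0 of them after adjustment.

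**Figure D3:**
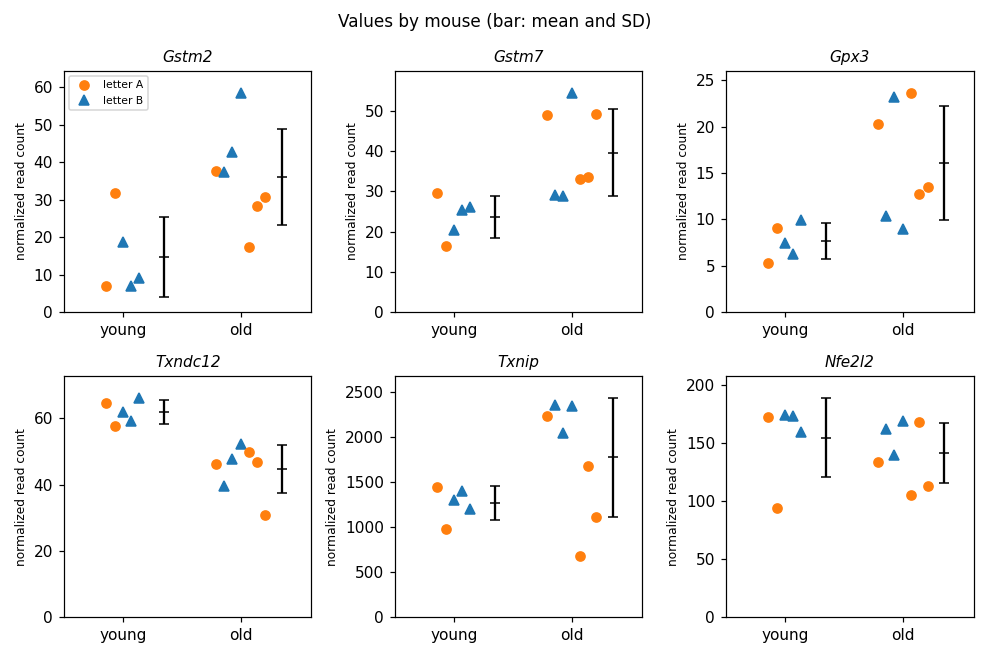
Normalized read count of each mouse for 6 genes, with orange circles for letter A, blue triangles for letter B and a bar for the mean and SD of each age (5 young, 7 old). Old mice lay below all young mice for Txndc12 and mostly above them for Gstm2, Gstm7 and Gpx3, and for Txnip 5 old mice lay above and 2 within or below the young range.

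Glutathione S-transferases were the largest family, with 12 of 21 genes tested, 7 log2 fold changes above 0 and 5 below, and a median of 0.03. The mu class lies side by side on chromosome 3, from Gstm5 (start 107895821) to Gstm4 (end 108044894), and the log2 fold changes of its tested genes had both signs, with none past the adjusted threshold. Gstm2 (chr3:107981702-107986453, minus strand) had the largest log2 fold change of the 47 genes. Young mice had 6.84, 31.7, 18.6, 6.87 and 9.11, from 22, 66, 95, 35 and 31 recovered reads. The lowest, median and highest old values were 17.4, 37.5 and 58.5, and 4 of the 7 old mice lay above the highest young mouse. The log2 fold change was 1.41 (SE 0.38, 95% interval 0.60 to 2.22, limma p = 0.00177, adjusted p = 0.372), and the two-sided exact permutation test gave p = 0.0114. With the letter as a covariate it was 1.45 (limma adjusted p = 0.0850), within letter A 0.83 (adjusted p = 0.9999) and within letter B 2.001 (adjusted p = 0.00853). The difference between letters had an interaction p of 0.101 before adjustment. In the covariate fit the call turned on single libraries. Without young mouse 2, the young mouse with the highest value, it was 1.95 (limma adjusted p = 0.00308), and without old mouse 5 it was 1.57 (adjusted p = 0.0207). Gstm2 shared 5.65% of its 50-base exon words with other genes.

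Gstm7 (chr3:107926334-107931817, minus strand) was at 29.6, 16.3, 20.4, 25.3 and 26.1 in young mice. Its lowest, median and highest old values were 28.7, 33.5 and 54.4, so that 5 of 7 old mice lay above the highest young mouse. The log2 fold change was 0.71 (SE 0.25, limma p = 0.0101, adjusted p = 0.825), the exact permutation test gave p = 0.0114, and the values within letters were 0.85 and 0.57. Gstm5, whose promoter also holds the element's letters, had a log2 fold change of opposite sign, -0.49 (SE 0.26), at 30.8 ± 6.28 in young and 21.9 ± 5.76 in old mice. Its limma p was 0.0751 and its exact permutation p 0.0379, both unadjusted. Gstm1, the most abundant of the cluster, was at 129 ± 27.9 and 151 ± 70.4. Its log2 fold change was 0.08 over all mice and 0.53 without the 2 libraries under 2 M reads (limma adjusted p = 0.496, and 0.0879 with the letter as a covariate). Gstm4 was at 18.2 ± 8.08 and 15.8 ± 3.34. Gstm6 and Gstm3, which lie between Gstm7 and Gstm2, were under the minimum, at 5.12 and 4.99 in young and 7.43 and 4.37 in old mice. Reads of Gstm1 and Gstm3 are less certain, as 18.9% and 28.8% of their 50-base words are shared with other genes.

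**Figure D4:**
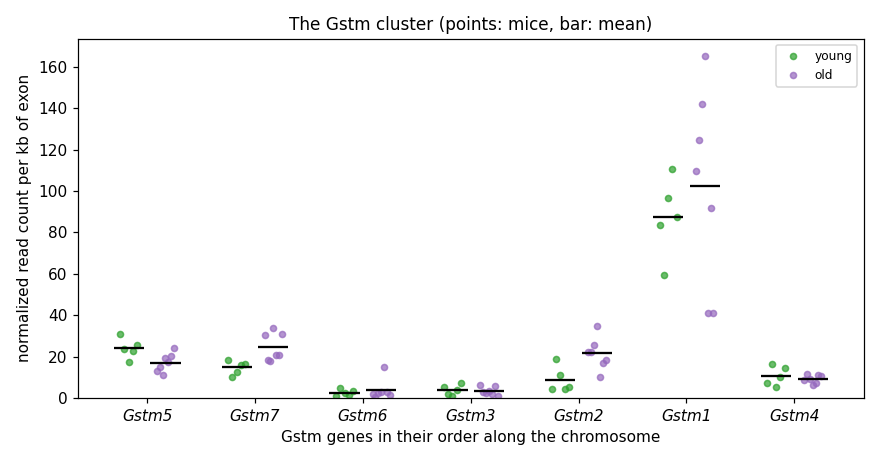
Normalized read count per kb of exon for the 7 Gstm genes in their order along the chromosome, 1 point per mouse (5 young in green, 7 old in purple) with a bar for the mean. Old means lay above young means for Gstm7 and Gstm2 and below for Gstm5, while Gstm1 was the most abundant gene at both ages.

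Outside the mu class no transferase reached an unadjusted limma p of 0.05 for age. Gstp1, the pi-class enzyme, was at 46.7 ± 13.7 in young and 46.0 ± 23.2 in old mice, Gsto1 at 73.2 ± 23.8 and 75.2 ± 23.4, and Gstt1 at 20.0 ± 6.16 and 20.0 ± 2.34. Gstt2 was at 21.9 ± 7.09 and 28.3 ± 7.32, Gstt3 at 29.6 ± 5.14 and 28.8 ± 10.4, and Gstk1, the mitochondrial and peroxisomal kappa-class enzyme, at 27.6 ± 10.8 and 31.7 ± 9.04. Gsta4, which acts on lipid peroxidation products, was at 15.4 ± 2.52 and 10.6 ± 3.47. Its log2 fold change was -0.55 (SE 0.39, limma p = 0.174, adjusted p = 0.9997), and the exact permutation test, unadjusted, gave p = 0.0316. The membrane-bound Mgst1 had a higher mean in old mice (10.1 ± 3.37 and 14.2 ± 10.3) that rested on old mice 5, 6 and 7, at 23.7, 28.8 and 20.9, and its log2 fold change of 0.15 was -0.03 with the letter as a covariate. Mgst3 was at 11.3 ± 6.09 and 13.0 ± 9.37, and Sod3 at 10.3 ± 7.20 and 9.90 ± 5.03.

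Among thioredoxin-fold proteins of other compartments, Txndc12, an oxidoreductase of the endoplasmic reticulum, was lower in each old mouse than in each young mouse. Young mice had 64.7, 57.7, 62.0, 59.3 and 66.1. The lowest, median and highest old values were 30.7, 46.7 and 52.1. The log2 fold change was -0.48 (SE 0.18, limma p = 0.0159, adjusted p = 0.937), with -0.51 among mice of letter A and -0.43 among those of letter B. The exact permutation test gave p = 0.00253, beside a smallest possible 0.00126. Txndc12 was named in part because its ages did not overlap, so this unadjusted p describes that separation and is no separate evidence. Txndc12 (chr4:108834601-108862127, plus strand) overlaps Kti12 on the same strand, though no 50-base exon word is shared. Txnl4a, a spliceosome component, was at 33.3 ± 10.4 in young and 22.8 ± 10.4 in old mice (log2 fold change -0.62, SE 0.33), and Txndc17 at 49.3 ± 24.4 and 38.1 ± 11.2. Txnl1, a cytosolic thioredoxin-like protein, was at 154 ± 29.1 and 159 ± 25.4, Txndc9 at 74.6 ± 14.3 and 70.8 ± 12.3, and Txndc11 at 64.3 ± 5.74 and 75.2 ± 19.4. Txnl4b was at 18.3 ± 10.2 and 18.2 ± 7.87.

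Between the letters, limma called 11 of the 47 genes, without a direction common to all. Of these, 6 were higher in B, as were 11.3% of all genes, and 5 were lower in B, as were 26.3%. As shares of the 47 these were 12.8% and 10.6%. Of the 5 lower in B, Sod3, Mgst3 and Hmox1 passed the minimum mean of 10 through letter A alone, so their calls are only description. Values of the letters did not overlap for 3 genes, Gpx4, Sod3 and Txnrd1, against 10.5% of all genes. The median log2 fold change of B against A was 0.14, and -0.08 over all genes. Under median-ratio scaling these medians were 0.45 and 0.25, 14 members were called, all higher in B, and none of the 5 lower members kept its call. Over all genes that scaling called 3429 of 11861 higher in B and 2323 lower.

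Higher in B were Gpx4, Gstp1, Gstm1, Cat, Txnrd1 and Prdx1. Gpx4 showed the largest difference. Its lowest, median and highest values were 21.2, 30.03 and 40.6 with letter A and 56.1, 74.8 and 92.3 with B, a log2 fold change of 1.26 (SE 0.21, limma adjusted p = 0.000108). It was called in young mice alone, in old mice alone and without the 2 libraries under 2 M reads. Gpx4 shares 34.7% of its 50-base words with other genes, among them its pseudogene Gpx4-ps2. Gstp1 was at 33.2 ± 14.4 in A and 59.4 ± 13.2 in B (log2 fold change 0.95, limma adjusted p = 0.0122), and shares 33.7% of its words with other genes, Gstp2 among them. Gstm1 was at 105 ± 41.7 and 179 ± 42.9, with a log2 fold change of 0.83 (limma adjusted p = 0.00629). Txnrd1 was at 139 ± 29.2 and 197 ± 23.4, Cat at 179 ± 66.9 and 262 ± 23.4, and Prdx1 at 61.1 ± 13.1 and 87.1 ± 16.0. Of the 8 HSC markers, 4 were also higher in B, where the 8 summed to 3757 to 5249, against 1474 to 3968 in A, and their part in these differences was not tested.

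Lower in B were Sod3, Mgst3, Hmox1, Txnl4b and Txnrd2. The first 3 of these passed the minimum mean of 10 through letter A alone, so their p-values are given only as description. With a minimum mean of 30 the calls were 6 higher and 1 lower, beside 1004 and 529 of 7039 genes. Sod3 was at 14.5 ± 2.84 in A and 5.57 ± 3.93 in B, a log2 fold change of -1.43 (SE 0.46, limma adjusted p = 0.0165). Mgst3, a membrane-bound transferase, was at 17.5 ± 7.97 and 7.13 ± 2.91, and Hmox1 at 19.8 ± 4.53 and 9.49 ± 3.47. Txnl4b, a splicing factor, was at 24.1 ± 7.36 and 12.4 ± 4.59, and Txnrd2 at 44.1 ± 8.90 and 28.3 ± 6.20. Some tested markers of other cells were also lower in B, as were 26.3% of all genes. These were 5 of 8 neutrophil, 4 of 4 stromal, 2 of 3 macrophage, 2 of 3 B cell, 3 of 9 erythroid and 1 of 4 endothelial markers. None of the 4 megakaryocyte, 2 progenitor, 2 mast cell and basophil or 1 T and NK cell markers was lower. Of the mast cell and basophil markers 1 was higher. The stromal markers summed to 35.8 to 136 in B, against 124 to 245 in A. The share of genes lower in B depended on level, with 529 of 7039 at a minimum mean of 30 against 3243 of 12354 at 10. The 26.3% is therefore not matched to the levels of these markers. The part of all these markers in the letter differences was not tested. Without the 2 libraries under 2 M reads, the letter calls among members numbered 1, Gpx4, beside 1661 of 11444 genes.

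**Figure D5:**
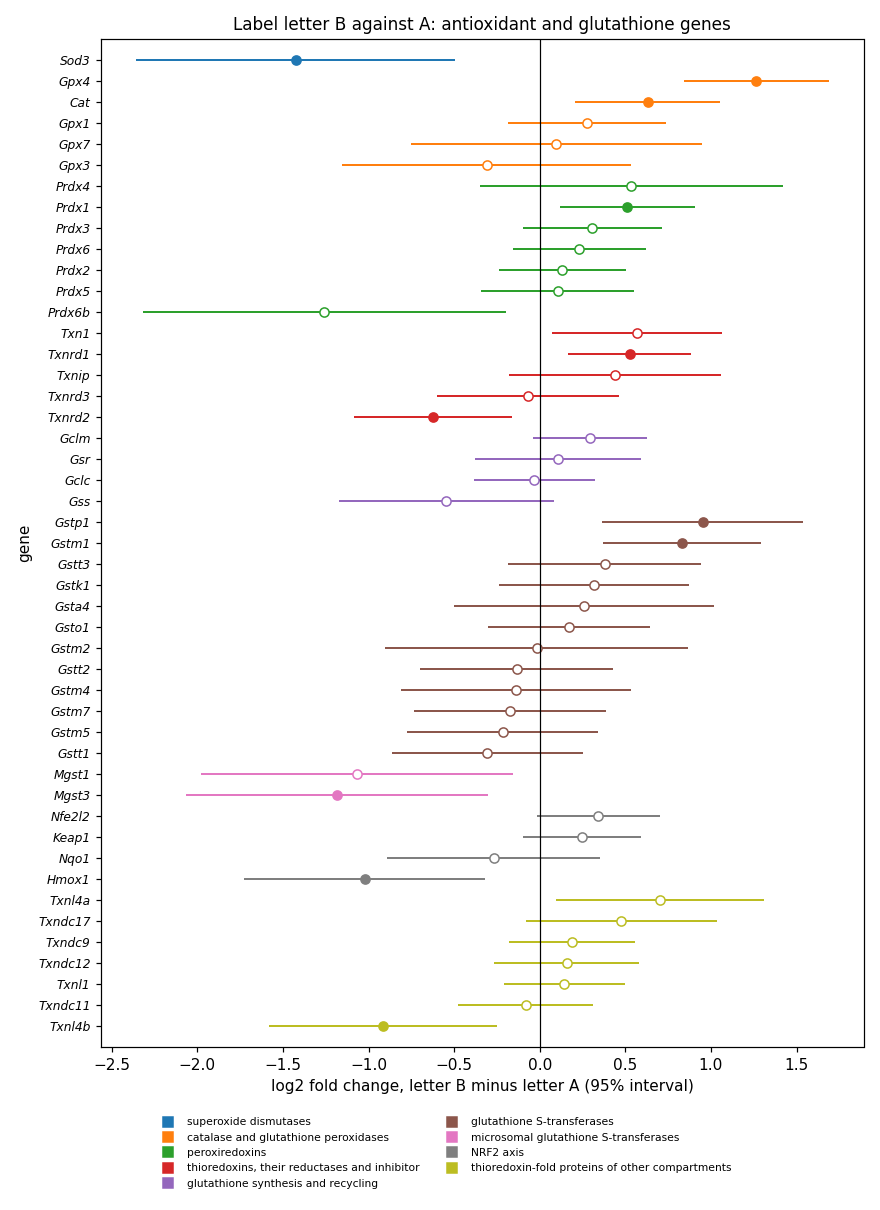
Log2 fold change of letter B (6 mice) against letter A (6 mice) on the log2(value + 1) scale, with its unadjusted 95% limma interval, for the 47 tested genes grouped and coloured by role. Filled circles mark the 11 genes that passed an adjusted p of 0.05, from Sod3 (-1.43) to Gpx4 (1.26). Among them, Sod3, Mgst3 and Hmox1 passed the minimum mean through letter A alone.

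Other genes of the same chemistry were taken from 6 lists, and limma called 0 of their tested genes for age, with or without the letter as a covariate. Of 17 NRF2 partners and other targets, 1 reached an unadjusted p under 0.05. This was Bach2, a repressor of the same element, at 59.3 ± 15.8 in young and 84.9 ± 17.9 in old mice (log2 fold change 0.52, limma adjusted p = 0.955). Of 11 genes of NADPH supply 1 did, Idh2, the mitochondrial NADP-dependent isocitrate dehydrogenase, at 104 ± 16.5 and 74.8 ± 22.5 (-0.52). The NADPH oxidases produce superoxide. Cybb, the catalytic subunit of the phagocyte oxidase, reached 268 in an old mouse, had a log2 fold change of 2.14 within letter A and -1.36 within letter B, and is itself expressed in neutrophils. Of 13 regulators of reactive oxygen in blood stem cells 1 did, Stk11, the kinase LKB1, at 98.2 ± 25.2 and 69.2 ± 22.3 (-0.52). Foxo1, of the transcription factors that protect HSCs from oxidative stress, was at 91.8 ± 11.1 and 120 ± 26.4 (0.37, limma p = 0.0629, adjusted p = 0.9997). None of 13 genes for glutaredoxins, methionine sulfoxide reductases and the turnover of glutathione and glyoxals, and none of 15 genes that encode selenoproteins or the machinery to make them, reached an unadjusted p of 0.05.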

How the data were processed

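RNA of sorted LSK-SLAM cells was depleted of ribosomal RNA and made into libraries. Each of the 12 mice has 2 labelled samples and 1 column in the table, and was counted once. Per the labels, the submitters' processing notes name FastQC 0.11.8, STAR 2.5.4b, edgeR 3.24.3 and mm10. The counting tool, the annotation and the strand setting are not given in the sources used here. The deposited table holds for each gene a normalized signal, which the authors made by dividing reads by library size times a scaling factor. Every value above 0 (100%) was a whole multiple, within 0.01, of what 1 read is worth in its mouse, and reads were recovered by that step (0.861 to 5.12 M per mouse, 3 reads being worth 0.583 to 3.69). Counting error is larger in the shallower libraries. The authors' own table of the age comparison, with log fold changes, likelihood ratios and p-values, was not used.

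Genes with a mean of at least 10 were tested with limma 3.58.1 (trend, R 4.3.3) on log2(value + 1) across all genes, with Benjamini-Hochberg adjustment at 0.05. These fold changes understate the change of low genes. Alternatives were the letter as a covariate, fits within letters, a replicate block, edgeR 4.0.16 and DESeq2 1.42.0 on the recovered reads, median-ratio scaling, pseudocounts of 0.5 and 5, minimum means of 1 and 30 or none, no trend, reads thinned to 861047, and leaving out mice. Exact permutation tests, two-sided, served for single genes (Python 3.11.15, scipy 1.17.1). The fit was checked on simulated data. The mice are separate animals, and nothing in the sources says more of litters or days. Exon lengths and 50-base words shared between genes came from a GENCODE annotation of GRCm38, and promoters from RefSeq. The genes, lists and alternatives were chosen with earlier results of these data known. Members were named if called for age, at an unadjusted p under 0.05 or without overlap between ages, or as the most abundant per kb or the most changed of a role. Also named were, each way between letters, up to 6 called members with the largest change, those with the 2 smallest interaction p, and always Nfe2l2 and Keap1. Other members are given by their levels, chosen after their values were seen. Up to 3 genes with the smallest p of each further list could be named. 1 gene of these lists is not reported here.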

Additional observations from a re-analysis of the deposited data

Results flagged for a closer look

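In 3 of 52 groups of values (26 named genes in each age), 1 mouse stood apart from its group by Dixon's criterion, where chance alone gives 2.6. Keap1 was at 113 in old mouse 2 and at 65.2 to 81.5 in the 6 other old mice. Nfe2l2 was at 94.7 in young mouse 2, the shallowest young library, and at 160 to 174 in the other young mice. Txnl4a was at 51.8 in young mouse 4 and at 26.4 to 30.4 in the other young mice.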

How the results depend on the processing

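In the age comparison 0 members were called under each alternative but 1, the mice with letter B alone (2, Gstm2 at 2.001 and Txnip at 0.79). With the letter as a covariate the count was 0 again, 2 without the 2 libraries under 2 M reads, and 0 to 1 when each mouse was left out. Members at an unadjusted p under 0.05 numbered 4, and 2 with a minimum mean of 30, 8 without those 2 libraries, 2 with thinned reads, 1 in letter A alone and 3 to 7 when each mouse was left out. Over all genes these numbers were 488 of 12354, 408 of 7039, 744 of 11444, 475 of 12332, 359 of 13890 and 355 to 689. With the covariate, members at that threshold numbered 5, 8 without those libraries and 2 to 6 when each mouse was left out. Over all genes these numbers were 643 of 12354, 1112 of 11444 and 530 to 878. For Gstm2, leaving out each mouse gave 1.22 to 1.74 (limma adjusted p 0.0705 to 0.9998), and 1.24 to 1.95 with the covariate (0.00308 to 0.371). Of all tested members, 8 of 47 changed sign with the covariate and 8 of 46 without the 2 libraries, none of them called for age. Among the members named for age, 4 changed sign under some alternative, and the cause was not tested. Hmox1 was -0.19 with thinned reads and -0.013 in letter A. Mgst1 was -0.23 without the 2 libraries, -0.082 with thinned reads, -0.030 with the covariate, -0.29 in replicates 1 to 5 with or without the replicate block, and -0.067 to 0.46 when each mouse was left out. Nfe2l2 was 0.028 without the 2 libraries and 0.0055 in letter A. Sod3 was -0.064 with edgeR, -0.065 with DESeq2, -0.22 with the covariate, -0.34 in letter A, and -0.27 to 0.30 when each mouse was left out.

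Letter calls numbered 11, and 7 with a minimum mean of 30, 1 without the 2 libraries (Gpx4), 3 in old mice alone (Gpx4, Gstm1 and Gstp1), 1 in young mice alone (Gpx4) and 6 (without old mouse 6) to 14 (without old mouse 1 or young mouse 1) when each mouse was left out. Without old mouse 5 there were 7. Over all genes letter calls numbered 4636 of 12354, and 1533 of 7039 with a minimum mean of 30 and 1661 of 11444 without the 2 libraries. They numbered 2913 of 12665 in old mice alone and 459 of 11830 in young mice alone. When each mouse was left out they numbered 3140 (without old mouse 5) to 5080 (without young mouse 1). At an unadjusted p under 0.05 there were 15 members, and 8, 9 and 5 with a minimum mean of 30, without the 2 libraries and in young mice alone, and 10 to 16 when each mouse was left out. Over all genes these numbers were 5931 of 12354, 2634 of 7039, 3688 of 11444, 2414 of 11830 and 4710 to 6201. The median of B against A was 0.45 under median-ratio scaling, where members were called higher and lower in B 14 and 0 times. Of all 11861 genes tested there, 3429 and 2323 were. No letter difference of a called member was reversed, and under the alternatives 213 of their fold changes stayed past the threshold and 59 did not. Over all genes, age calls numbered 13, and 57 with DESeq2, 18 with edgeR, 2 with no trend, 5 under median-ratio scaling, 49 without the 2 libraries, 98 in letter B alone and 3 to 32 when each mouse was left out (32 without old mouse 5).

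Replicate numbers run from 1 to 5 in both ages. Young and old mice of the same number had correlations of -0.56 to 0.61 in their deviations (mean 0.14), and 2 of 5 young mice were nearest to the old mouse of their own number, so the numbers were not taken to pair the mice. The replicate block called 0 members, and 19 genes in all against 8 without it.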
